A study of Mus musculus with 24 samples.

Results

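The livers described here are those of all mice that ate an obesogenic diet, set against the livers of mice kept on a low-fat diet. They were chosen by their labels alone: the 8 arrays of the HFoleic group and the 7 arrays of the HFepa group form the obesogenic side, 15 of the 24 arrays in all, and the 9 arrays of the reference group form the other. Each array carried liver RNA of 1 male C57bl/6J mouse of the F3 generation. HFoleic mice came from a control lineage whose growing diet had been supplemented with high-oleic sunflower oil for generations, and were then fed a diet high in fat and sucrose. HFepa mice came from a lineage given instead a fish oil with much EPA, the omega 3 fatty acid eicosapentaenoic acid, and were fed the same obesogenic diet. The reference mice were of the control lineage and were fed a low-fat diet. All were killed during the fasting period. The EPA lineage has no mice on the low-fat diet in this series, so in HFepa the diet cannot be told apart from the lineage and its oil. To describe what both lineages share, the change was estimated as the mean of HFoleic and HFepa, each with equal weight, minus the reference.

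The liver stores and releases fuel for the body. After a meal insulin favours the uptake of glucose and the building of fat and cholesterol, whereas in fasting glucagon and falling insulin favour the making of glucose from amino acids and the oxidation of fat. Sterol levels are sensed in the membrane of the endoplasmic reticulum (ER): when sterols are scarce, the transcription factor SREBP2 is released and raises the enzymes of cholesterol synthesis, and INSIG proteins hold it back when sterols are plentiful. The ER also folds the proteins that hepatocytes secrete, and its chaperones rise when unfolded proteins gather there, while heat-shock chaperones do the corresponding work in the cytosol.

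All levels below are log2 signals of a probe, and all changes are differences on that log2 scale with their standard error (SE). A gene was read from its brightest probe, and a probe was called when its adjusted p (limma, Benjamini-Hochberg over all 32176 probes) was under 0.05. Levels of different genes are not compared, since each probe has its own brightness. In whole liver, fewer cells of a type and less RNA per cell cannot be told apart. The study's methods, not the labels, give 1 array per mouse.

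Between 50.9% and 60.8% of the probes of an array were well above background, 0 spots were saturated, and within a group the arrays' correlations ran from 0.974 to 0.995. The label of the tissue held: all 10 hepatocyte markers were well above background on every array, and their summed signal ranged from 1561800 to 1728980 in the reference and from 1638820 to 1753600 in the obesogenic mice. Of these 10, Cps1 and Tat, which also belong to the metabolic lists below, were called lower, 8 were not called and Alb was at 0.00. Without reference replicate 8, 2 of the 10 were called higher and 2 lower. A few reference livers stood apart. On the first principal component (18.2% of the variance) reference replicate 5 lay at 80.7 and the other reference mice at 30.0 or less. In this mouse the mean of the stellate cell and matrix genes lay 1.49 above the reference mean, that of the proliferation genes 1.12, of the adipocyte markers 1.22 and of the bile duct markers 1.16. Adipocyte markers were also high in reference replicate 4 (1.78) and muscle markers in reference replicate 3 (1.68). On the second component (14.8%) reference replicate 8 lay at -14.9, the lowest of its group, among the HFoleic mice (-22.9 to -0.40). The part of these differences in the results was not tested, and list counts that moved by more than 1.5 times without replicate 5 or replicate 8 are given beside the lists.

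Across both lineages, 1738 of 32176 probes were called (5.4%), 909 higher and 829 lower in obesogenic livers, and 6062 had an unadjusted p under 0.05. All 1738 had the same sign in HFoleic and in HFepa, but the choice of probes by the mean of both, with the same 9 reference arrays, nearly fixes that count, and nothing is read from it. The changes were mostly small. In size the called changes had a median of 0.34 (range 0.13 to 2.32), and 51 probes changed by more than 1. In the called direction the median change was 0.38 in HFoleic and 0.29 in HFepa. Read by gene, 541 of 14595 genes were called higher (3.71%) and 492 lower (3.37%), and the median change over all genes was 0.00. These shares are the background of every list count below. Single calls in a list near them are not read as a result about the list. Between the lineages themselves limma called 0 probes (0% of 32176), although 2969 had an unadjusted p under 0.05. The lowest adjusted p was 0.0558. Among the 1738 probes called in the pooled comparison, 398 (22.9%) had an unadjusted p under 0.05 between the lineages, against 9.23% of all probes. Taken alone against the reference, HFoleic gave 2122 called probes and HFepa 110.

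The count rested in part on single reference mice. Leaving out reference replicate 8 raised it to 2623, and leaving out reference replicate 1 lowered it to 1101. Without reference replicate 7 it was 1180, and without reference replicate 5 it was 1367. The clock score of a mouse (a summary of its circadian genes) ranged from -0.28 to 1.11 in the reference, from -0.89 to 0.68 in HFoleic and from -1.40 to 1.04 in HFepa. The score is the mean of clock genes of the Bmal1 phase minus the mean of those of the Per and Dbp phase. With this score as a covariate, 801 probes were called. It tended to be higher in the reference, so in this fit the diet and the clock cannot be told apart.

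**Figure D1:**
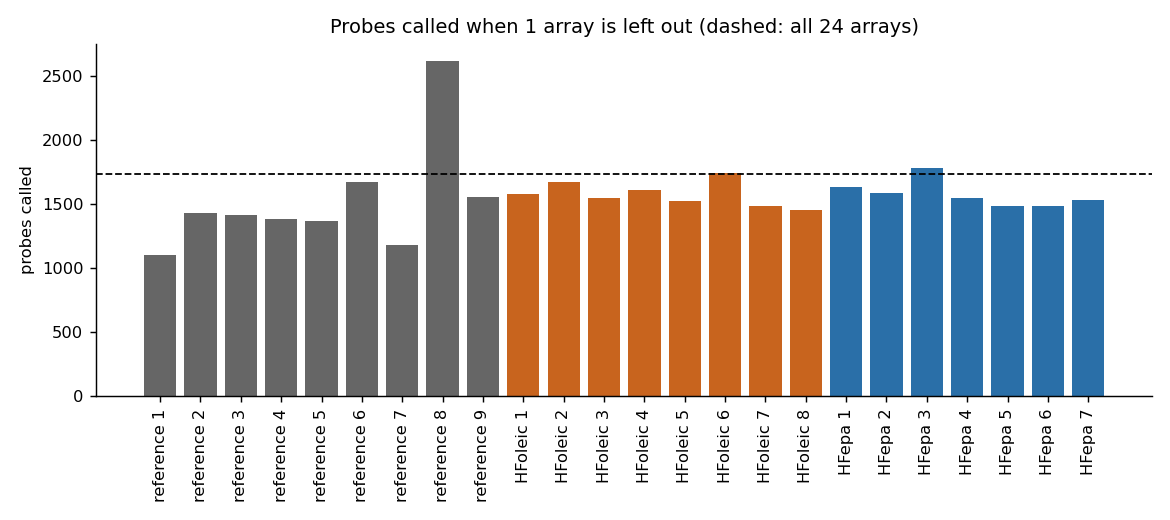
Number of probes called (adjusted p under 0.05, both lineages against reference, y axis) when the array named on the x axis is left out, with bars coloured by group (grey reference, orange HFoleic, blue HFepa). The dashed line is the count with all 24 arrays, 1738. Leaving out reference replicate 8 gives the highest bar (2623) and reference replicate 1 the lowest (1101).

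Several of the 10 largest rises belong to sterol metabolism, among them Sqle, Msmo1, Insig1, Cyp51 and Stard4, described below. Others were Clec2h (1.50, SE 0.40), which encodes a C-type lectin-like protein, Aatk (1.21, SE 0.21), a kinase first described in cells undergoing apoptosis, and Cxcl1 (2.14-fold), a chemokine that draws neutrophils. The signal of Aatk (chromosome 11, 119868694 to 119868753) was 7.38, 8.68 and 9.50 at the lowest, median and highest in the reference, 9.87, 10.28 and 10.61 in HFoleic and 8.73, 9.75 and 10.60 in HFepa. All 8 HFoleic mice and 6 of 7 HFepa mice lay above the highest reference mouse (adjusted p = 0.00307, limma). For Clec2h 8 of 15 obesogenic mice lay above every reference mouse, and for Cxcl1 5 did. The call of Cxcl1 (adjusted p = 0.0436, limma) was lost in 15 of 24 leave-outs and that of Clec2h in 3.

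The largest fall was that of Tff3, a small secreted trefoil peptide made by mucosal and bile duct epithelium and by hepatocytes. Its signal (chromosome 17, 31262279 to 31262338) was 9.63, 11.26 and 14.08 at the lowest, median and highest in the reference, 6.63, 8.19 and 11.75 in HFoleic, and 8.37, 9.13 and 10.54 in HFepa. It varied widely between mice, and 10 of 15 obesogenic mice lay below every reference mouse. The change was -2.32 (SE 0.51, 4.98-fold lower, adjusted p = 0.0104 by limma), with -2.68 in HFoleic and -1.95 in HFepa.

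Got1, which also fell, encodes the cytosolic aspartate aminotransferase, an enzyme that moves amino groups and carbon between aspartate and oxaloacetate. Its signal (chromosome 19, 43574278 to 43574337) was 13.87, 14.86 and 16.24 in the reference, 12.64, 13.33 and 13.89 in HFoleic, and 13.36, 13.52 and 14.10 in HFepa. The groups met at a single reference mouse: 11 of 15 obesogenic mice lay below all reference mice, and 8 of 9 reference mice lay above all obesogenic mice. All 3 probes of Got1 were called lower, the brightest by -1.40 (SE 0.20, adjusted p = 0.000719 by limma), and the call held in all 24 leave-outs.

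Mfsd2a encodes a transporter of lysophosphatidylcholine with long-chain fatty acids that is induced in fasting liver. Its signal (chromosome 4, 122624182 to 122624241) was 12.41, 13.67 and 14.28 in the reference, 11.33, 12.27 and 13.07 in HFoleic, and 12.04, 12.75 and 13.05 in HFepa. All 15 obesogenic mice lay below the reference mean, and 8 of 9 reference mice lay above every obesogenic mouse (change -1.14, SE 0.21, adjusted p = 0.00377 by limma). Cidec, a protein of the lipid droplet surface, changed by -1.52 (SE 0.41). Tuba8, a tubulin, changed by -1.45 (SE 0.33), Cgref1, a secreted protein with EF hands, by -1.22 (SE 0.27), and Gnat1, the transducin subunit best known from rods, by -1.19 (SE 0.29). Gnat1 ranged from 5.99 to 9.44 in the reference and from 5.70 to 7.03 in the obesogenic mice, where 14 of 15 arrays had it well above background.

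The other 3 of the 10 largest falls were Mt1, a metallothionein that binds zinc (-1.38, SE 0.41), Asns, asparagine synthetase (-1.33, SE 0.33), and Cdkn1a, the cell-cycle inhibitor p21 (-1.31, SE 0.36). These calls were less steady: that of Mt1 (adjusted p = 0.0473, limma) was lost in 17 of 24 leave-outs, that of Cdkn1a in 10 and that of Asns in 1. The second probe of Mt1 changed by -0.16 (adjusted p = 0.846) and that of Asns by -0.42 (adjusted p = 0.179). Each of the 20 largest changes had the same sign within each of the 3 slides, with 2 or 3 mice of a group per slide, and within each of the 2 slide rows. These genes were chosen by their change over the same arrays, which nearly fixes these signs, and nothing is read from them.

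**Figure D2:**
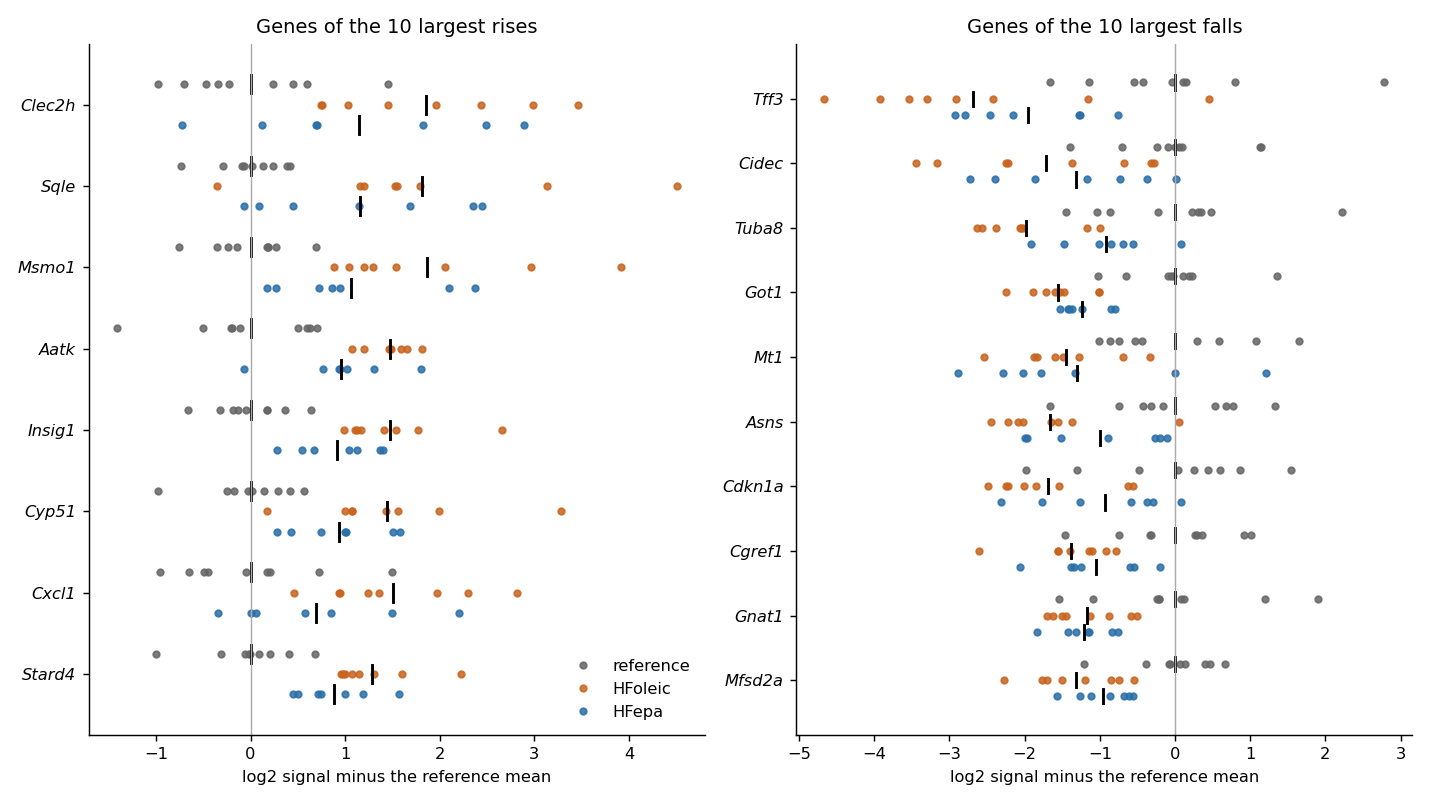
Log2 signal of each mouse minus the reference mean (x axis) for genes of the 10 largest rises (left) and falls (right) that the text names, with 1 point per mouse (grey reference, orange HFoleic, blue HFepa) and a black bar at each group mean. Most obesogenic points lie on 1 side of the reference mean, and the groups overlap in every gene shown.

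Many genes of cholesterol synthesis were higher, and others were not called. Of 20 measured genes of this list 11 were called higher and 0 lower, against 3.71% and 3.37% of all genes, and their median change was 0.62, against 0.00 over all genes. Lineage by lineage the median was 0.84 in HFoleic, where 13 were called, and 0.36 in HFepa, where 0 were, and 0 of 20 were called between the lineages. The 11 covered the path from its start to its late steps: Hmgcs1, the synthase at the entry (0.87, SE 0.17), Mvd (1.07, SE 0.30) and Idi1 (1.06, SE 0.25) of the mevalonate steps, Fdft1 (0.60, SE 0.16), which makes squalene, Sqle (1.49, SE 0.40), which oxidises it, Lss (0.64, SE 0.18), which closes the ring, and Cyp51 (1.19, SE 0.26), Msmo1 (1.46, SE 0.32), Nsdhl (0.87, SE 0.25), Ebp (0.20, SE 0.05) and Sc5d (0.45, SE 0.09), which trim and desaturate the sterol. The second probe of Cyp51 was not called (0.44, adjusted p = 0.341 by limma), nor was 1 of the 3 probes of Msmo1 (1.02, adjusted p = 0.126). Dhcr7, the last enzyme of a branch of the path, was not called (0.08, SE 0.21). Single mice varied widely: Sqle was 7.80, 8.55 and 8.95 at the lowest, median and highest in the reference, 8.19, 10.08 and 13.04 in HFoleic and 8.47, 9.68 and 10.99 in HFepa. Of the obesogenic mice 12 of 15 lay above all reference mice for Sqle and 2 lay below the reference mean. Averaged over the list, a mouse stood at -0.40 to 0.15 from the reference mean in the reference, at 0.12 to 2.09 in HFoleic and at -0.01 to 0.98 in HFepa.

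Among 16 genes that sense, bind or take up sterols 3 rose and 1 fell. Insig1, which retains SREBP2 in the ER and is itself its target, was 7.00, 7.61 and 8.30 at the lowest, median and highest in the reference, 8.65, 8.95 and 10.32 in HFoleic, and 7.95, 8.70 and 9.06 in HFepa. All 8 HFoleic mice and 5 of 7 HFepa mice lay above the highest reference mouse (change 1.19, SE 0.18, adjusted p = 0.00123 by limma). Stard4, a carrier of cholesterol in the cytosol, rose by 1.08 (SE 0.17), and 13 of 15 obesogenic mice lay above all reference mice. Insig2, the family member with a liver transcript that is high in fasting and lowered by insulin, went the other way (-0.54, SE 0.10), with -0.55 in HFoleic and -0.53 in HFepa. Srebf2, which encodes SREBP2, was not called (0.06, SE 0.08).

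Without reference replicate 5, whose list mean was the lowest of its group, 6 of the 20 cholesterol synthesis genes were called, and without reference replicate 8 it was 11. Sqle was among those lost without replicate 5 (adjusted p = 0.0593, limma). Without reference replicate 7, Sqle, Fdft1, Lss, Mvd and Nsdhl lost the call. With the clock score as a covariate 3 of the 20 were called, at a median change of 0.48, whereas Insig1 (1.05, adjusted p = 0.0112 by limma) and Stard4 (0.86, adjusted p = 0.0112) were still called.

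The sterol element, the sequence to which SREBP binds, was searched as TCACNCCAC on both strands in RefSeq promoters (GRCm38.p6, from 250 bases before to 50 after the transcription start). It lay in 408 of 32851 promoters (1.24%), in 1 of 19 promoters of the cholesterol synthesis list and in 0 of 16 of the sterol sensing list. Not every list gene was searched: 624 of the 794 measured have a promoter, and these promoters belong to 16 and 11 genes. Of the called genes, 9 and 2 had a promoter, with the letters in 1 and 0. In these windows the letters are thus found in few of the called genes that were searched. The match was in Hmgcs1, shown because it is the entry to the pathway, with the 160 bases before its start (chr13:119690191-119690350, plus strand) and the element in capitals.
Hmgcs1: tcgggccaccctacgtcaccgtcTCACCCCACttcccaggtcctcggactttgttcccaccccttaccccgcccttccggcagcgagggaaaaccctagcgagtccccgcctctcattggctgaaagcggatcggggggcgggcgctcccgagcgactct

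Of 24 measured genes of fatty acid and triglyceride synthesis 2 rose and 2 fell, and the median was 0.01. Each count is 8.33% of the list, against 3.71% higher and 3.37% lower over all genes. The 2 that rose encode transcription factors: Mlxipl (ChREBP, which answers to glucose) by 0.50 (SE 0.08) and Srebf1 (SREBP1, which answers to insulin) by 0.71 (SE 0.19). The paper gives Srebf1 as significantly higher in HFoleic but not in HFepa, by array and by quantitative PCR (RT-qPCR). It gives Mlxipl as higher in both lineages by array, and by RT-qPCR in HFoleic only. The signal of Mlxipl was 13.48, 13.96 and 14.25 at the lowest, median and highest in the reference, 14.27, 14.52 and 14.75 in HFoleic, and 14.13, 14.42 and 14.60 in HFepa, and 14 of 15 obesogenic mice lay above all reference mice. Their classical target Fasn, fatty acid synthase, was not called (0.37, SE 0.22, adjusted p = 0.399 by limma), nor was Scd1, a desaturase (-0.50, SE 0.17, adjusted p = 0.096). Acacb, the carboxylase that makes malonyl-CoA at the mitochondrion, fell by 0.66 (SE 0.18) on the log2 scale, and Agpat6, an acyltransferase of triglyceride synthesis, by 0.51 (SE 0.07). The signal of Agpat6 was 14.13, 14.44 and 14.71 in the reference, 13.61, 13.74 and 13.94 in HFoleic and 13.87, 14.02 and 14.36 in HFepa, with 14 of 15 obesogenic mice below all reference mice and all 3 probes called lower (adjusted p = 0.000719, limma).

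On the side of fat storage and use, 3 of 18 lipid droplet genes fell and 0 rose. They were Pnpla2, the lipase that opens stored triglyceride (-0.50, SE 0.09), Plin5, which links droplets to mitochondria (-0.48, SE 0.11), and Cidec, given above. The signal of Pnpla2 was 13.08 to 13.68 in the reference, 12.37 to 13.07 in HFoleic and 12.84 to 13.30 in HFepa, and 14 of 15 obesogenic mice lay below all reference mice. Of 33 genes of fatty acid oxidation and PPARalpha, the receptor that fatty acids activate in fasting, 2 fell (6.06%) and 1 rose (3.03%). Over all genes the shares were 3.37% and 3.71%. Lineage by lineage the median was -0.09 in HFoleic, where 8 were called, and 0.05 in HFepa, where 0 were. Between the lineages limma called 0 of 33, with 11 at an unadjusted p under 0.05, against 9.23% of all probes. Cpt1a, which admits long-chain fatty acids to the mitochondrion, fell by 0.36 (SE 0.07) and Cyp4a14, a PPARalpha target, by 0.47 (SE 0.10), while Bdh1 of ketone metabolism rose by 0.41 (SE 0.09). Of 23 apolipoprotein and lipoprotein genes 2 fell and 0 rose: Sdc1, the syndecan through which hepatocytes take up lipoprotein remnants (-0.64, SE 0.09, all 3 probes called), and Apoa5, which aids the clearing of plasma triglyceride (-0.24, SE 0.06). Sdc1 lay below all reference mice in 14 of 15 obesogenic mice.

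Of 29 measured genes that make glucose from other fuels or are induced by glucagon, 11 were called lower, 1 higher and 17 not, and the median change was -0.24. It was -0.44 without reference replicate 7, with 12 called lower and 0 higher, and -0.36 without reference replicate 6. The rise was not called without reference replicate 5, and 2 were called higher without reference replicate 8. Lineage by lineage 13 were called in HFoleic (median -0.27) and 3 in HFepa (median -0.29), and 0 of 29 were called between the lineages. Pck1 and G6pc, which encode the first and the last committed enzymes of gluconeogenesis, both fell. The signal of Pck1 was 16.14, 16.90 and 17.00 at the lowest, median and highest in the reference, 15.72, 16.10 and 16.43 in HFoleic, and 16.21, 16.51 and 16.74 in HFepa, so that 1 low reference mouse lay among the obesogenic mice. The change was -0.52 (SE 0.10, adjusted p = 0.00412 by limma), with -0.74 in HFoleic and -0.29 in HFepa. G6pc changed by -0.52 (SE 0.10), with -0.52 in each lineage, and 7 of 15 obesogenic mice lay below all reference mice. Ppargc1a, the coactivator that drives this programme in fasting, changed by -0.58 (SE 0.13), with -0.54 in HFoleic and -0.62 in HFepa. By RT-qPCR the paper gives no significant change of Ppargc1a against the reference in either lineage.

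The list also held aminotransferases and other enzymes that feed amino acid carbon into glucose: besides Got1, Gpt2 fell by 0.63 (SE 0.12), Sds by 0.87 (SE 0.18) and Tat by 0.54 (SE 0.13). Kiss1, a peptide that liver makes in answer to glucagon, was 9.01, 9.55 and 10.53 at the lowest, median and highest in the reference, 8.03, 8.58 and 9.07 in HFoleic and 8.32, 8.64 and 9.49 in HFepa. Of the obesogenic mice 13 of 15 lay below all reference mice (change -0.99, SE 0.17, adjusted p = 0.0027 by limma). Slc25a25, a mitochondrial carrier of adenine nucleotides, changed by -0.68 (SE 0.14), with all 4 probes called lower. Igfbp1 and Irs2, both raised in liver when insulin is low, changed by -1.03 (SE 0.23) and -0.81 (SE 0.18). The paper gives Irs2 as significantly lower in HFoleic but not in HFepa, by array and by RT-qPCR. The gene that rose was Gcgr, the glucagon receptor (0.18, SE 0.05, adjusted p = 0.0442 by limma), whose call was lost in 18 of 24 leave-outs. In each of the 15 obesogenic mice the mean over the list lay below the reference mean, at -0.56 to -0.29 in HFoleic and -0.38 to -0.20 in HFepa. The reference mice ranged from -0.32 (replicate 8) to 0.43 (replicate 5), so that 9 of 15 lay below all of them. The 11 calls lower were also 11 without replicate 5 and became 12 without replicate 8, and with the clock score as a covariate 9 were called.

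The cyclic AMP element TGACGTCA, which CREB binds when glucagon acts, was in 1 of 30 promoters of this list (25 genes searched), that of Slc25a25, and in 1.79% of all promoters.

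Glycolysis and glycogen genes had 3 rises and 1 fall among 25. They included Gbe1, which branches glycogen (0.41, SE 0.11), and Ppp1r3b, which brings the phosphatase that activates glycogen synthase to the particle (-0.46, SE 0.12). Of 20 genes of insulin signalling 0 rose and only Irs2 fell. Glycolysis and glycogen had 0 falls and insulin signalling 1 rise without reference replicate 5, and without reference replicate 8 glycolysis and glycogen had 5 rises.

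Of 35 measured genes of amino acid breakdown and the urea cycle 9 were called lower, 2 higher and 24 not, with a median of -0.14. Lineage by lineage 10 were called in HFoleic and 0 in HFepa, and 0 of 35 between the lineages. The urea cycle gave 3 of these: Cps1, its entry (-0.68, SE 0.13), Asl, which splits argininosuccinate (-0.86, SE 0.15), and Arg1, which releases urea (-0.54, SE 0.11). The signal of Asl was 13.78, 14.40 and 15.08 at the lowest, median and highest in the reference, 13.08, 13.47 and 13.75 in HFoleic, and 13.39, 14.04 and 14.35 in HFepa. All 8 HFoleic mice lay below the lowest reference mouse, and the HFepa mice reached into the reference range. The others that fell were Mat1a, which makes S-adenosylmethionine (-0.51, SE 0.10), Hgd (-0.43, SE 0.08) and Hpd (-0.24, SE 0.07) of tyrosine breakdown, Aass of lysine (-0.65, SE 0.14), Kynu of tryptophan (-0.35, SE 0.09) and Gls2, the liver glutaminase (-0.39, SE 0.11). The 2 that rose, Glud1 (0.35, SE 0.07) and Glul (0.35, SE 0.10), encode glutamate dehydrogenase and glutamine synthetase. In the list, 7 were called lower without reference replicate 5, and 7 with the clock score.

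Genes that ATF4 induces when amino acids are short or the ER is stressed moved in both directions, with 3 higher and 2 lower of 23 and a median of -0.04. Asns and Cth, which make asparagine and cysteine, were lower: Cth was 13.83, 14.22 and 15.08 in the reference, 13.34, 13.55 and 13.66 in HFoleic and 13.16, 13.63 and 14.21 in HFepa, and 13 of 15 obesogenic mice lay below all reference mice (-0.72, SE 0.13, adjusted p = 0.00307 by limma). Chac1, which degrades glutathione, was higher (0.89, SE 0.23), as were Vldlr, the receptor of very low density lipoprotein (0.76, SE 0.21), and Psph of serine synthesis (0.29, SE 0.08). Atf4 itself (0.12, SE 0.07) and Ddit3, which encodes CHOP (0.10, SE 0.12), were not called. With the clock score as a covariate 1 gene of the list was called higher and 1 lower.

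The amino acid response element, to which ATF4 binds, was searched as TGATGNAA on both strands. It was in 8 of 27 promoters of this list (29.6%, 23 genes searched) and in 3.97% of all promoters. Asns and Chac1 both hold it while their changes had opposite signs, and their stretches before the start are shown for that reason, with the element in capitals (Asns chr6:7693210-7693269, minus strand; Chac1 chr2:119351032-119351241, plus strand, which carries the reverse complement).
Asns: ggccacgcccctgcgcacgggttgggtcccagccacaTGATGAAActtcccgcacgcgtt
Chac1: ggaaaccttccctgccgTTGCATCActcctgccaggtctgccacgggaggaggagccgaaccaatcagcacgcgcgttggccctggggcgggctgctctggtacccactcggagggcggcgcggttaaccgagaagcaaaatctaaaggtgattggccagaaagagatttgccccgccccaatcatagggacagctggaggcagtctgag

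Chaperones of the ER and genes of ER-associated degradation, the path that sends misfolded proteins to the proteasome, were called higher in 18 of 38 cases and lower in 0, with a median of 0.27. They included the regulator Xbp1 (0.41, SE 0.09), the chaperones Hspa5 (BiP; 0.64, SE 0.16), Hsp90b1 (0.37, SE 0.09), Calr (0.44, SE 0.13) and Canx (0.22, SE 0.05), the disulfide isomerases Pdia4 (0.57, SE 0.13) and Pdia6 (0.61, SE 0.11), the BiP cofactors Dnajb11 (0.41, SE 0.10) and Sdf2l1 (1.01, SE 0.27), and the degradation genes Herpud1 (0.73, SE 0.14), Derl2 (0.29, SE 0.05), Derl3 (1.49, SE 0.40), Syvn1 (0.50, SE 0.13) and Sel1l (0.32, SE 0.10). Genes of ER translocation and of COPII transport, which share the organelle, gave 2 rises and 0 falls of 32 (Sec61b 0.27, SE 0.07, and Sec11a 0.24, SE 0.06). Their median was 0.16 in HFoleic, where 6 were called, and -0.02 in HFepa, where 0 were. Between the lineages limma called 0 of 32, with 15 at an unadjusted p under 0.05. Without reference replicate 5, 11 of the 38 were called, and without reference replicate 8, 21. With the clock score as a covariate 13 were called. Calr, Sdf2l1, Derl3 and Sel1l were among those that lost the call without reference replicate 1.

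In this list the mean change in HFoleic lay above that in HFepa for all 18 called genes, while single mice of the lineages overlapped, as in Hspa5, Derl3 and Herpud1. Hspa5 was 13.86, 14.70 and 15.10 at the lowest, median and highest in the reference, 15.05, 15.70 and 16.15 in HFoleic, and 14.41, 14.84 and 15.66 in HFepa. The HFoleic mice lay at the top of the reference range or above it, and most HFepa mice lay inside it (0.99 in HFoleic and 0.29 in HFepa). Derl3 was 6.05, 7.04 and 8.31 in the reference, 8.01, 10.48 and 11.56 in HFoleic, and 6.37, 7.02 and 8.50 in HFepa, with 2 obesogenic arrays that gave no value and were dropped for this probe. Its change was 2.82 in HFoleic and 0.17 in HFepa, the widest such distance in the list. Taken lineage by lineage, limma called 22 of the 38 genes in HFoleic and 0 in HFepa. The difference between the lineages was called for 0 of 38, with 23 at an unadjusted p under 0.05, led by Pdia6 (HFepa minus HFoleic -0.73, adjusted p = 0.116) and Derl3 (-2.64, adjusted p = 0.116). Herpud1 was at 0.81 in HFoleic and 0.64 in HFepa, and its signal was 12.38 to 14.02 in the reference, 13.90 to 14.64 in HFoleic and 13.89 to 14.38 in HFepa.

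The ER stress element, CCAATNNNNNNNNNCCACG on either strand, is bound by ATF6 and XBP1 together with NF-Y. It lay in 10 of 38 promoters of this list (26.3%), 8 of them of genes that were called, and in 39 of all 32851 promoters (0.119%). The 38 promoters belong to 33 genes. It is shown for 4 genes that rose, in the bases just before the start and with the element in capitals, on the plus strand of chromosomes 2, 12, 15 and 10 (Hspa5 chr2:34771990-34772089, Pdia6 chr12:17266469-17266588, Creld2 chr15:88819506-88819645, Derl3 chr10:75893228-75893397). In Creld2 and Derl3 the reverse complement is read.
Hspa5: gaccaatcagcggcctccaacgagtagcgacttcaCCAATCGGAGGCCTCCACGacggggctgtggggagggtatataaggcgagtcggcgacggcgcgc
Pdia6: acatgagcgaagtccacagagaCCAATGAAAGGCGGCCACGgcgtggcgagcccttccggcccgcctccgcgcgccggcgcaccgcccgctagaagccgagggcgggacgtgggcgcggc
Creld2: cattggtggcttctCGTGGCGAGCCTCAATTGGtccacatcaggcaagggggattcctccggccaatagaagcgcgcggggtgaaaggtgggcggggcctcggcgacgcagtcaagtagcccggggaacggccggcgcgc
Derl3: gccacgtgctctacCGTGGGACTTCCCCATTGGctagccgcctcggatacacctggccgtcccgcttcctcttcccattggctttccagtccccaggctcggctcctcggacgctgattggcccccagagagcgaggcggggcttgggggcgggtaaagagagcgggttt
The 4 genes carry the same letters at both ends of the element and differ in the bases between them, and their pooled changes were 0.64, 0.61, 0.80 and 1.49.

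Of 23 measured heat-shock genes 11 were called higher and 0 lower, with a median of 0.30, which was 0.20 in HFoleic and 0.27 in HFepa. Hsph1, a cofactor of HSP70, was 10.39, 11.23 and 11.72 at the lowest, median and highest in the reference, 11.52, 11.79 and 12.20 in HFoleic, and 11.56, 11.92 and 12.16 in HFepa, and 12 of 15 obesogenic mice lay above all reference mice (0.66, SE 0.12, adjusted p = 0.00391 by limma). Hspb1, a small heat-shock protein, rose by 0.75 (SE 0.14, with 8 of 9 reference values present), Dnajb1 by 0.55 (SE 0.11), Dnaja1 by 0.45 (SE 0.08), Chordc1 by 0.35 (SE 0.07), and the HSP90 cofactors Fkbp4 by 0.42 (SE 0.06), Stip1 by 0.35 (SE 0.09) and Ahsa1 by 0.29 (SE 0.05). The inducible HSP70 genes were not called and did not point the same way in each lineage: Hspa1a was -0.18 in HFoleic and 1.11 in HFepa (pooled 0.46, SE 0.28, difference between the lineages with an adjusted p of 0.220 by limma). Mitochondrial chaperones stayed near 0 (Hspd1 0.01, Hspe1 0.04). Limma called 8 of the list in HFoleic alone and 4 in HFepa alone. The count was 9 without reference replicate 5 and 8 with the clock score.

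Both cold-inducible RNA-binding genes, which rise when body temperature falls, were lower. The brightest probe of Rbm3 was 11.67, 11.98 and 12.27 in the reference, 11.02, 11.24 and 11.45 in HFoleic and 11.13, 11.61 and 11.88 in HFepa. All 8 HFoleic mice and 5 of 7 HFepa mice lay below the lowest reference mouse (-0.61, SE 0.09, adjusted p = 0.000719 by limma). Of its 4 probes 3 were called lower and 1 higher (0.45, adjusted p = 0.0302), so they disagree. Cirbp changed by -0.68 (SE 0.13), with all 3 probes called lower, and 3 of 15 obesogenic mice lay below all reference mice. Body temperature is not given in the sources used here.

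**Figure D3:**
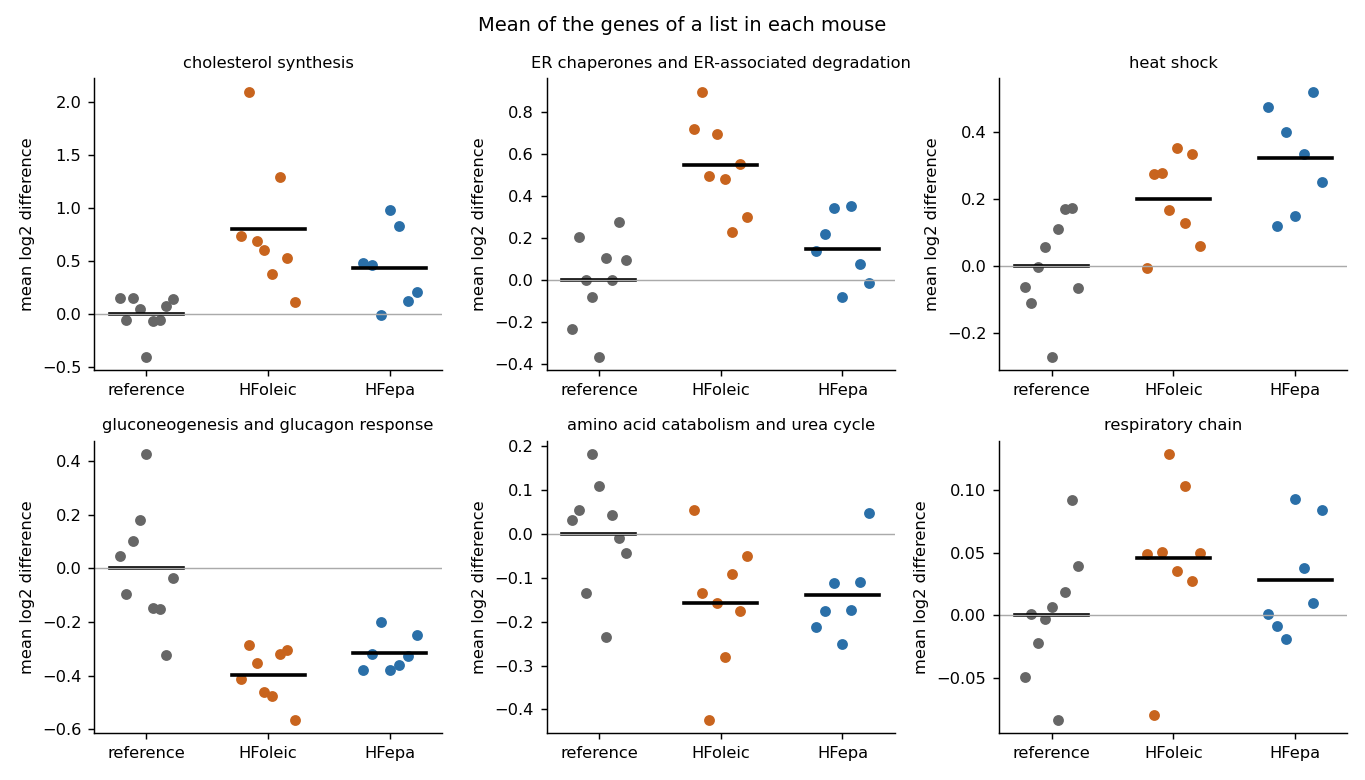
Mean over the measured genes of 6 lists in each mouse, as the log2 difference from the reference mean (y axis), by group (x axis), with 1 point per mouse and a black bar at the group mean. Obesogenic mice stand higher for cholesterol synthesis, ER chaperones and heat shock and lower for gluconeogenesis, ER chaperones separate HFoleic more than HFepa, and the respiratory chain stays within about the same range.

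**Figure D4:**
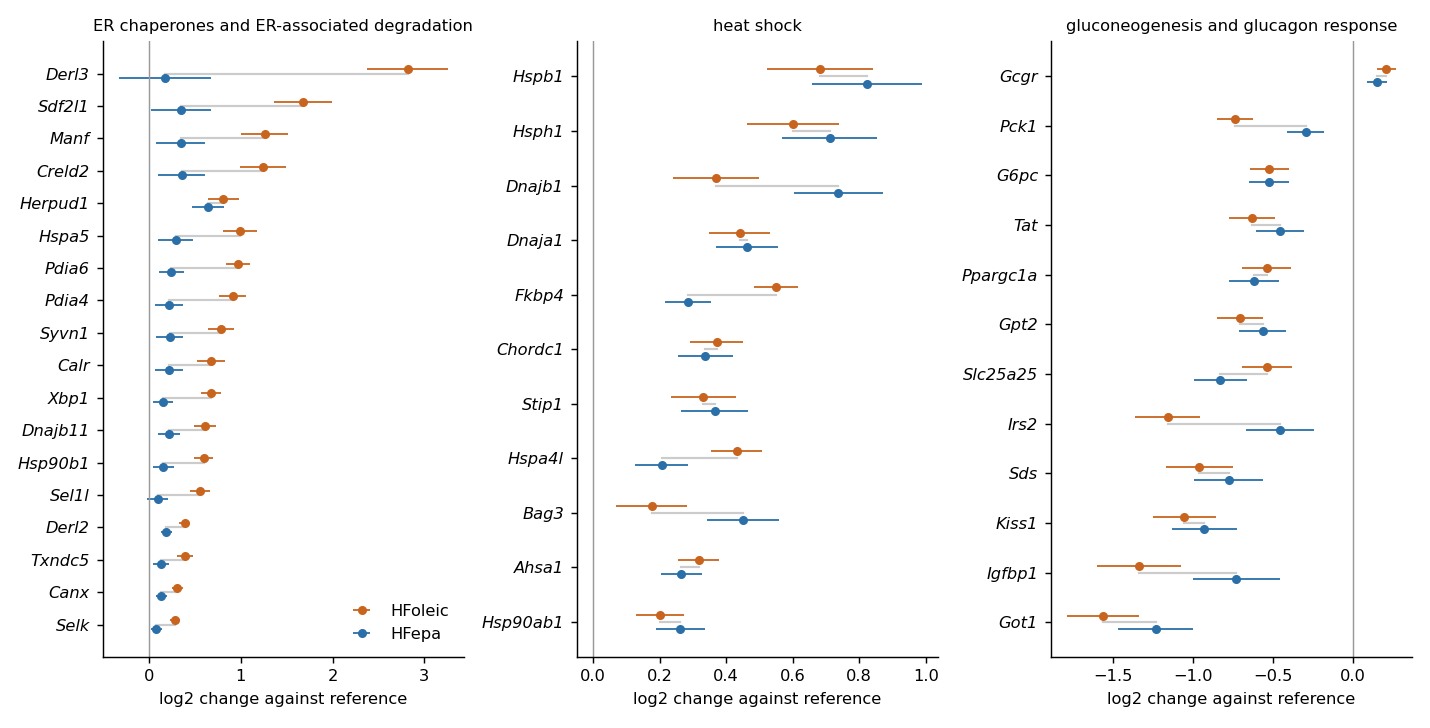
Change of each called gene of 3 lists against the reference (x axis, log2, points with bars of 1 SE), in HFoleic (orange) and HFepa (blue). For ER chaperones the HFoleic points lie to the right of the HFepa points, for heat shock and gluconeogenesis the points of both lineages lie closer together, and both sets share the 9 reference arrays.

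Among detoxifying genes, 3 of 33 cytochrome P450 genes fell (9.09%) and 2 rose (6.06%). Over all genes 3.37% were called lower and 3.71% higher. The small counts in this paragraph are not read as results about the lists. Por, the reductase that supplies electrons to microsomal P450 enzymes and to squalene epoxidase, was 15.53, 15.80 and 15.88 in the reference, 14.62, 15.17 and 15.40 in HFoleic and 15.32, 15.46 and 15.59 in HFepa. Of the obesogenic mice 13 of 15 lay below all reference mice (-0.48, SE 0.08, adjusted p = 0.00161 by limma). Cyp3a25 (-0.37, SE 0.09) and Cyp2u1 (-0.34, SE 0.09) fell, though another probe of Cyp2u1 rose (0.34, adjusted p = 0.0228), and Cyp2j5 (0.37, SE 0.10) and Cyp26a1, which clears retinoic acid (0.60, SE 0.17), rose. Of 23 bile acid genes 4 rose and 0 fell: Akr1c6 (0.44, SE 0.08), the bile salt export pump Abcb11 (0.38, SE 0.09), Hsd3b7 of bile acid synthesis (0.23, SE 0.06) and the uptake carrier Slco1b2 (0.44, SE 0.12). Of 29 antioxidant and glutathione genes 2 rose, Gpx1 (0.21, SE 0.05) and Gsta3 (0.34, SE 0.09). Both calls were lost with scaling to the 75th percentile (adjusted p of 0.0727 and 0.0586 by limma for the median signal). Gpx1 ranged from 17.18 to 17.43 in the obesogenic and from 16.87 to 17.25 in the reference mice, and 14 of 15 obesogenic mice lay above all reference mice. Of 22 secreted hepatokines and activins 3 fell and 1 rose: besides Tff3, Fst, which binds activins (-0.81, SE 0.21), and Hamp, the iron hormone hepcidin (-0.93, SE 0.27), were lower, and the activin subunit Inhbb was higher (0.56, SE 0.14). Of 37 acute phase and complement genes 4 rose, led by Saa4 (0.76, SE 0.15) and Itih4 (0.29, SE 0.07). Of 24 growth hormone and sex-biased genes 2 fell, Nipal1 (-0.89, SE 0.18) and Fmo2 (-0.55, SE 0.15). Leaving out reference replicate 5, 6 P450 genes rose, 1 bile acid gene and 1 growth hormone or sex-biased gene fell, and Hamp was no longer called (adjusted p = 0.0854, limma). Without reference replicate 8, 8 antioxidant genes rose and 1 fell, 1 bile acid gene fell, 2 hepatokines rose, and 1 growth hormone or sex-biased gene rose.

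Of 63 respiratory chain genes 0 were called in either direction, with a median of 0.04 and mouse means between -0.08 and 0.13 in all groups. Of 31 proteasome genes 2 rose by small amounts (Psma3 0.17, SE 0.05, and Psma1 0.14, SE 0.04), which is 6.45% against 3.71% of all genes. Macrophage and Kupffer cell genes gave 0 calls of 21, stellate cell and matrix genes 1 of 23 (Lrat, which stores retinol as ester, 0.41, SE 0.08), interferon and antigen presentation genes 2 of 32 (Usp18 -0.76, SE 0.20, and B2m 0.18, SE 0.05) and proliferation genes 1 of 24 (Tyms 0.22, SE 0.06). The proteasome, interferon and proliferation lists gave 0 calls each without reference replicate 5. Without reference replicate 8, 3 respiratory chain genes and 1 macrophage gene were called higher, 2 interferon genes higher, and 1 proliferation gene lower. The collagen genes Col1a1 (-0.50), Col1a2 (-0.43) and Col3a1 (-0.09) were not called. Their highest reference signals, 11.2, 12.7 and 12.4, stood far above the reference medians of 6.90, 9.33 and 8.75.

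Markers of other cells showed few calls. The lists of lymphocyte and neutrophil (8 measured), adipocyte (7), muscle (5), blood cell (4) and pancreas (3) markers gave 0 calls each, sinusoidal endothelial markers 1 of 9 (Clec4g 0.30, SE 0.08) and bile duct and gallbladder markers 1 of 4 (Sox9 -0.57, SE 0.16). The endothelial list gave 0 calls without reference replicate 5 and 2 without reference replicate 8, and the lymphocyte and neutrophil list gave 1 fall in each case. The summed signal of the adipocyte markers ranged from 1608 to 17460 in the reference and from 1902 to 12846 in the obesogenic mice, and that of the bile duct markers from 324 to 1115 and from 326 to 444. Cidec and Tff3, both among the largest falls, are also expressed in adipose tissue and in bile duct or gut epithelium. Without reference replicate 5, Cidec was no longer called (adjusted p = 0.0594, limma), nor without reference replicate 1 (adjusted p = 0.0683), and Tff3 was called in all 24 leave-outs. The part of these cells in the falls was not tested.

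Of 10 clock genes that peak with Per and Dbp, 1 was called: Nr1d2 (0.55, SE 0.12), which encodes the repressor REV-ERB beta. The list median was 0.36, with Dbp at 1.18 (SE 0.54, adjusted p = 0.229 by limma) and Per2 at 0.75 (SE 0.24, adjusted p = 0.0686). None of 6 genes of the opposite phase was called (0 of 6, with Arntl, which encodes BMAL1, at -0.66, SE 0.20, and an adjusted p of 0.0545 by limma). The hour of death of each mouse is not given in the sources used here. E-boxes (CACGTG) were in 5 of 13 promoters of the Per and Dbp list (4 of 11 genes searched) and in 7.15% of all promoters. The D-box TTATGTAA was in 1 of 13 and in 0.938%. Neither was found in the promoter of Nr1d2, the called gene. Of 17 glucocorticoid and metallothionein genes, 2 fell (Cdkn1a and Mt1) and Nr3c1, the glucocorticoid receptor, rose (0.30, SE 0.06). In this list 0 genes fell without reference replicate 5, and without reference replicate 8, 5 fell and 2 rose. Without replicate 8, 3 genes of the Per and Dbp list were called higher and 1 of the opposite phase lower.

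The calls of single list genes were not equally steady. Of those given above as changed, Sel1l and Hpd lost the call in 17 of 24 leave-outs, B2m in 16, Psma1 and Tyms in 15, Calr and Nsdhl in 14, Lss in 12, Psph in 11, and Cyp26a1, Gls2 and Hamp in 10. Apart from these and from Cxcl1, Mt1, Cdkn1a and Gcgr, given above, each of them lost it in 8 or fewer. Of the 112 called list genes beyond the 20 largest changes, 72 kept the call in all leave-outs. Under all 13 processing alternatives 47 of the 112 kept it. Among the alternatives, Sel1l lost it in 8 and Calr in 7. Hsp90b1, Creld2 and Derl3 lost it in 4 each, and Hspa5, Ebp and Srebf1 in 3 each.

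**Figure D5:**
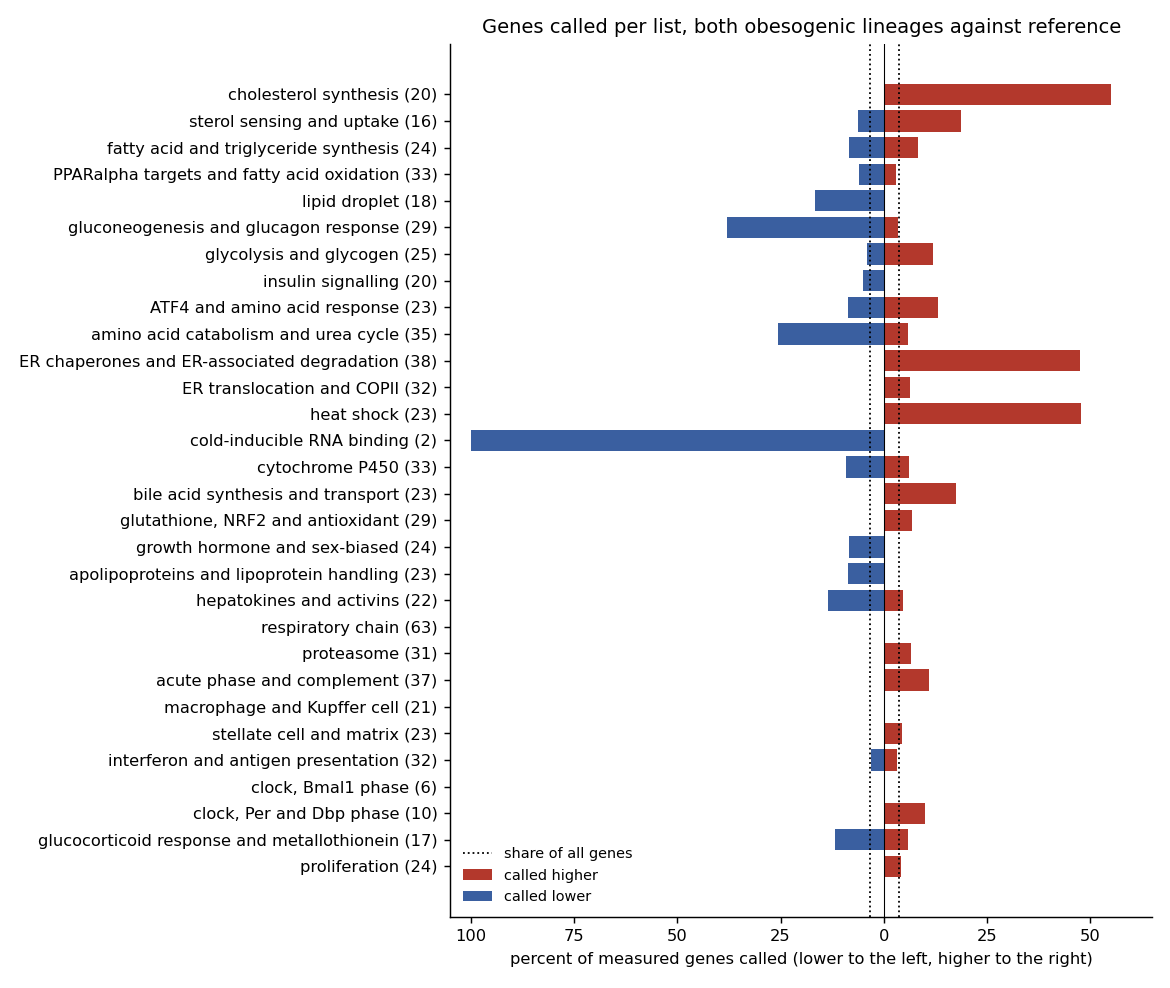
Percent of the measured genes of each list (number in parentheses) called lower (blue, to the left) or higher (red, to the right), both lineages against the reference. Dotted lines give the share over all genes, 3.37% lower and 3.71% higher. Cholesterol synthesis, ER chaperones and heat shock reach farthest to the right, gluconeogenesis and the 2 cold-inducible genes farthest to the left, and the respiratory chain, macrophage and Bmal1 phase lists hold 0 calls.

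A complete separation of the groups was rare. Of 30033 probes with values on all arrays, 4 (0.0133%) had all 15 obesogenic mice on 1 side of all 9 reference mice. Of these only Kansl1l, whose product is related to a subunit of a histone acetyltransferase complex, has a gene symbol that is not a model name (0.50, adjusted p = 0.00161 by limma). This probe is not the brightest of its gene, so Kansl1l lies outside the rule for named genes and was chosen after its values were seen. The other 3 are the transcript models Gm39874 (-0.49), ENSMUST00000119884 (0.48) and a chromosome 6 interval probe (0.73). Without reference replicate 8 the number was 50. They include probes of Got1, Stard4, Pck1, Por, Herpud1, Mfsd2a, Hgd and Chordc1, all of which are described above and none of which separated the groups fully with that mouse included.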

How the data were processed

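Liver RNA of 24 mice was hybridised to 1-colour Agilent arrays, 1 array per mouse. The authors scanned them with Agilent Feature Extraction 10.10.1.1, and the deposited table holds log2 median signals, quantile normalized (column medians 7.82 to 7.83), for 32176 of 56605 probes. Its 2550 empty cells are those whose spots were all outliers on that array. The deposited scanner files hold intensity values and other marks per spot, such as outlier and background flags, and were used for the alternatives and checks. Probe positions are in mm9, as the file headers give, and promoters are RefSeq's in GRCm38.p6. The builds differ, so exon and UTR positions were not determined.

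A group-means model was fitted to the table with limma 3.58.1 in R 4.3.3 over all 24 arrays, the mean of HFoleic and HFepa was compared with the reference, and p-values were adjusted by Benjamini-Hochberg over all probes. The number of arrays limits the precision. The rule for named genes took the 10 largest rises and 10 largest falls among called genes with values on all arrays, read from the brightest probe. They also needed the same sign in both lineages and a symbol that is not a model name. The probe had to be well above background on every array of the side where it was higher. A gene near background on the other side could thus enter through its high group. The members and the 38 gene lists (838 genes, 794 measured) were chosen with earlier results of these data known. Tested on simulated data for this comparison, with 32176 probes, the fit recovered 81 of 100 probes changed by 0.5 and 98 of 100 changed by 1 (log2), with 12 false calls. The simulated noise was normal and independent between probes and arrays, and it held no livers that stood apart. The test thus checks the fit alone and cannot give the recovery or the false calls in these data. Alternatives were 13 processing choices and the omission of each of 24 arrays. Some genes that the rule or the lists hold are not reported here by name.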

Additional observations from a re-analysis of the deposited data

Results flagged for a closer look

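Of 60 sets of values (20 genes in 3 groups), 3 held a mouse far from the rest of its group, where chance gives about 5%. HFoleic replicate 2 was the highest of its group for Insig1 (10.32, next 9.43), a gap of 0.534 of the group's range. The same mouse was the highest of its group for Asns (8.79, next 7.36), a gap of 0.572. HFoleic replicate 8 was the lowest of its group for Cgref1 (7.45, next 8.49), a gap of 0.570.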

How the results depend on the processing

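With the clock score as a covariate 801 probes were called, 421 higher and 380 lower, all 801 in the same direction in both lineages (a count that the choice of probes nearly fixes), and 11 of the 20 named genes were called. With an intensity trend and robust variances, 2 probes differed between the lineages. When single arrays were left out, the calls ranged from 1101 to 2623, those higher from 511 to 1405, those lower from 554 to 1218, those in the same direction in both lineages from 1101 to 2623, the probes without overlap from 4 to 50 and those differing between the lineages from 0 to 12. The other alternatives gave 1456 to 1841 calls. Of the named genes 13 of 20 were called in all 24 leave-outs and 10 of 20 under all 13 processing alternatives, and 0 results reversed. The median of the gluconeogenesis list moved by more than 1 SD between mice in 1 leave-out, that of reference replicate 7, to -0.44. Equal numbers did not pair the arrays (median r = 0.003, 3 of 22 pairs over 0.1), and the replicate block gave 1456 calls. The causes were not tested. Probes near background carry less certain changes.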
